A study of Arabidopsis thaliana with 18 samples.

Results

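The loci described here lie around the centromeres of Arabidopsis thaliana. They were chosen by identifier alone: AT1G36000 to AT1G43500, AT2G08000 to AT2G13500, AT3G31000 to AT3G42500, AT4G05500 to AT4G08000 and AT5G29000 to AT5G35000. Of the 32399 loci in the count files, 2156 (6.65%) fell in these ranges. Messenger RNA had been sequenced from whole seedlings 12 d old, and each library came from a pool of 5 plants. The 6 groups, with 3 libraries each, were ros1-3 with abscisic acid (ABA), ros1-3 mock, ros1-4 with ABA, ros1-4 mock, wild type with ABA and wild type mock. ABA seedlings were held for 6 h in water with 50 µM ABA, and mock seedlings in water with the solvent. Separate growth or treatment of the pools is not described, so p-values measure the spread between these libraries.

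The pericentromere is the repeat-rich DNA on either side of a centromere. In Arabidopsis it is packed as heterochromatin, carries dense cytosine methylation and holds many transposons and gene remnants that are kept silent. ABA is the hormone of drought and dormancy responses; its signal reaches many promoters through bZIP transcription factors that bind a motif with the core ACGTG. ROS1 is a DNA glycosylase that excises 5-methylcytosine, and ros1-3 and ros1-4 are mutant alleles of its gene.

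By the TAIR10.1 reference annotation, which matched 2122 of the 2156 loci, 1775 (82.3%) were pseudogenes, 330 protein coding genes and 17 noncoding RNA genes; 34 had no entry. Among all other loci, pseudogenes made up 7.07%. The annotated class of pseudogene here includes transposon-derived loci. The loci run over chr1:13422554-16386291, chr2:3618058-5629099, chr3:12663148-14631925, chr4:2783273-4833406 and chr5:11021980-13275881, leaving out 1 locus whose identifier lies in the chromosome 3 range but whose annotated position does not, AT3G36659.

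Upstream sequences of 5 of these loci are shown because the results below turn on them. RAP2.6 and AT4G06744 had the largest increases with ABA in wild type among the loci called in every genotype. AT2G12646 and RAP2.9 had the largest decreases among those with an average log2 CPM of at least 1. AT3G32925 had reads in every ros1 library and in no wild type library, and was chosen after its values were seen. Each is the 250 bases before the annotated start, 5′ to 3′ on the strand of the gene, from the RefSeq TAIR10.1 genome: chr1:16263555-16263804 on the plus strand, then, all on the minus strand, chr4:4072471-4072720, chr2:5169304-5169553, chr4:4074736-4074985 and chr3:13488633-13488882. Capitals mark ACGTG on either strand, so that CACGT is the same motif read on the other strand and CACGTG is both.
RAP2.6: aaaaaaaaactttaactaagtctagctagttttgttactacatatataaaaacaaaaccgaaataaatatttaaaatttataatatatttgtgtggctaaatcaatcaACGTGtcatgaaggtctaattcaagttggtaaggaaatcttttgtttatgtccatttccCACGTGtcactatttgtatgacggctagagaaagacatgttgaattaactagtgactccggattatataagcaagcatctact
AT4G06744: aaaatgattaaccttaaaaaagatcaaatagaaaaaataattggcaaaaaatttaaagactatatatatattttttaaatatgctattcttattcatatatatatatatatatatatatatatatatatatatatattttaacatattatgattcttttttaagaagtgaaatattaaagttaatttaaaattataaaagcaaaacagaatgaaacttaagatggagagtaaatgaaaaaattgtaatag
AT2G12646: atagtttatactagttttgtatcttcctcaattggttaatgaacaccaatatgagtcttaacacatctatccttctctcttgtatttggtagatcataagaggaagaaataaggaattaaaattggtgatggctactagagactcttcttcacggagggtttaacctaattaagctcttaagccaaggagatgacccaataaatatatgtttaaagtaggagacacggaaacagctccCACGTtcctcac
RAP2.9: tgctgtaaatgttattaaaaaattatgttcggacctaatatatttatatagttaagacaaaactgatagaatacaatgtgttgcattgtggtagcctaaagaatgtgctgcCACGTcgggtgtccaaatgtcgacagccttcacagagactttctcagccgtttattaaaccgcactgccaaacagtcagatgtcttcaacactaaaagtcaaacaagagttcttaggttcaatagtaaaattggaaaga
AT3G32925: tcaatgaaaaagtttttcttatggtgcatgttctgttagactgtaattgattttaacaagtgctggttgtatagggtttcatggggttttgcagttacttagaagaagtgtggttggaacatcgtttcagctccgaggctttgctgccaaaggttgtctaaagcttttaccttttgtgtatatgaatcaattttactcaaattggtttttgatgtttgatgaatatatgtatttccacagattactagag
RAP2.6 had 3 matches to ACGTG, AT2G12646 and RAP2.9 1 each, and AT4G06744 and AT3G32925 none. The motif was thus present upstream of loci that were higher with ABA and of loci that were lower. AT4G06744 and RAP2.9 are neighbours on the same strand, with 1246 bases between them.

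Counted reads per library ranged from 3304038 to 10275773, and the pericentromeric loci held 1152760 of them over the 18 libraries, between 0.807% and 1.80% of a library. The targeted gene, ROS1, averaged 53.9 ± 5.82 CPM, the count scaled to a common library size, in ros1-3 with ABA, 54.1 ± 3.30 in ros1-3 mock, 40.7 ± 6.2 in ros1-4 with ABA and 34.5 ± 3.57 in ros1-4 mock, against 108 ± 11.9 in wild type with ABA and 87.8 ± 6.17 in wild type mock (SD, n = 3 each). The ABA-induced genes LTI78, LTI65 and HAI1 summed to between 555 and 885 CPM in the 9 ABA libraries, against 9.35 to 22.3 CPM in the 9 mock libraries. Leaf markers summed to at least 7371 CPM in every library, while the 4 seed storage genes summed to at most 1.49 CPM, with CRU3 and CRA1 at 0 reads in every library.

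Most pericentromeric loci had no counted read. At least 1 read in the 18 libraries was found for 262 loci (12.2%), against 23528 of 30243 (77.8%) among all other loci. The gap was wide among protein coding loci and pseudogenes. Of the protein coding loci 131 of 330 (39.7%) were read, against 22662 of 26370 (85.9%) elsewhere. Of the pseudogenes 125 of 1775 (7.04%) were read, against 440 of 2139 (20.6%) elsewhere. Noncoding RNA genes stood close together, with 29.4% read against 30.7% elsewhere. These shares describe the loci and have no replicate error. Reads that aligned to several places, 3.46% to 13.0% of a file, were assigned to no locus. A locus without a counted read is therefore not shown to be silent. The part of such reads in the gap was not tested.

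The filter on low counts asked for about 2.08 CPM in 3 libraries, and 89 pericentromeric loci (4.13%) passed it, against 15764 others (52.1%). The 89 comprised 78 protein coding genes, 9 pseudogenes and 2 noncoding RNA genes. A further 173 were read but too low to test, with a median of 3 reads in all 18 libraries together. Of the 89, 85 had reads in every library. Their median level in wild type mock was 10.8 CPM per kb of exon, against 9.10 for the other tested loci. Because a read that fits several transcript models of a locus was set aside as ambiguous, loci with several models are undercounted; 97.4% of the pericentromeric loci and 80.7% of the others had 1 model. An example is RP1, a ribosomal protein L3 gene with 9 models, which kept 1 read.

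**Figure D1:**
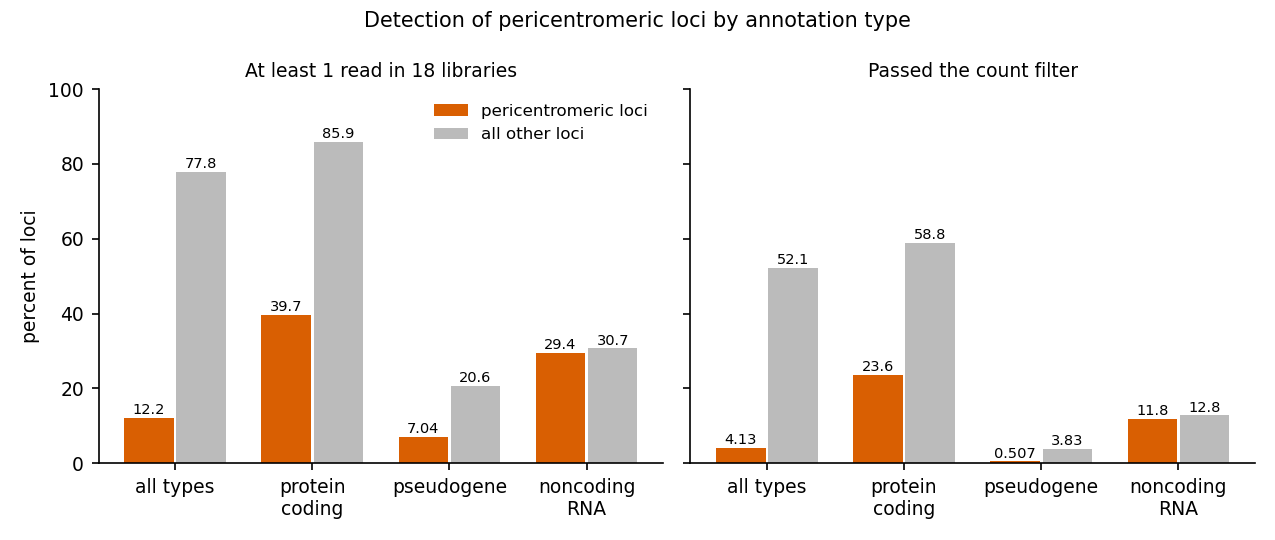
Share of loci (percent, vertical axis) with at least 1 read and with enough reads to be tested, for pericentromeric loci (orange) and all other loci (grey), by annotation type. Protein coding loci were read in 39.7% of cases, against 85.9% elsewhere, and pseudogenes in 7.04%, against 20.6%.

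Detected loci were spread unevenly. Tested loci numbered 26 of 456 on chromosome 1, 22 of 439 on chromosome 2, 13 of 387 on chromosome 3, 16 of 422 on chromosome 4 and 12 of 452 on chromosome 5. When the loci of each chromosome were put in identifier order and divided into 5 nearly equal parts, the parts held 14, 13, 11, 23 and 28 tested loci. This order did not hold on each chromosome. The central part had 0 tested loci on chromosomes 1 and 4, but 6 of 22 on chromosome 2, 3 of 13 on chromosome 3 and 2 of 12 on chromosome 5. The last part held the most on chromosome 1, with 12 of 26, and the fourth part held the most on chromosomes 2 and 3. The longest stretch of consecutive loci without a read was 73 loci on chromosome 5, from AT5G32572 to AT5G33270. The next longest was 69 loci on chromosome 4.

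**Figure D2:**
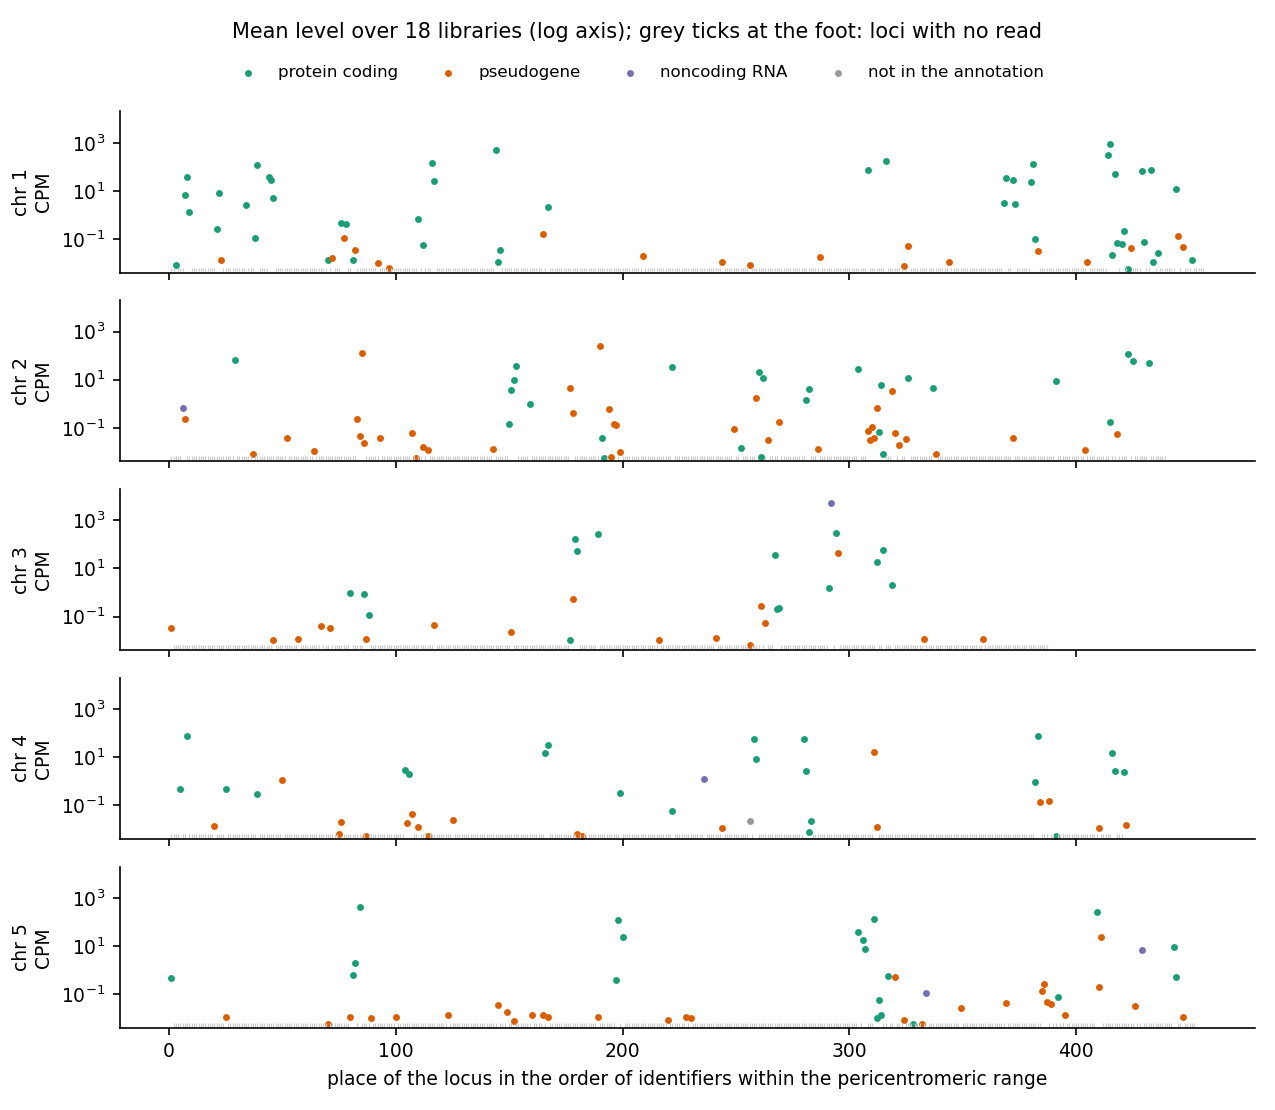
Mean CPM over the 18 libraries (vertical, log axis) of each pericentromeric locus by its place in identifier order (horizontal), 1 panel per chromosome, coloured by annotation type; grey ticks are loci with no read. Loci with reads stand in small groups separated by long stretches without a counted read, and most of the loci above 10 CPM are protein coding.

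The 12 highest levels belonged to genes of varied function. Per kb of exon in wild type mock, the 18S ribosomal RNA gene AT3G41768 stood first with 5357 CPM per kb. It was followed by GAPB, a subunit of the Calvin cycle glyceraldehyde-3-phosphate dehydrogenase, with 548, by AT1G42960, annotated as an inner membrane protein, with 377, and by RPS1, the plastid ribosomal protein S1, with 293. The peroxidase gene AT3G32980 had 266, the ribosomal protein L35Ae gene AT1G41880 164, AT3G32930 146 and the vacuolar ATPase subunit H gene AT3G42050 145 CPM per kb. AT1G36980, annotated as a transmembrane protein, had 141, the nitrate reductase gene NIA2 138, and AT5G32450, an RNA-binding protein gene, 100 CPM per kb. The only pseudogene among these 12 was SADHU1-1, a noncoding retroposon, with 130 CPM per kb. The 3 replicate libraries differed little for most of them; NIA2 was the most variable, with 443 ± 157 CPM in wild type mock (SD, n = 3).

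With ABA, 21 of the 89 tested loci changed in the same direction in all 3 genotypes: 8 rose and 13 fell. Across all tested loci, 26.5% were called in all 3 genotypes, 14.6% higher and 11.9% lower, and among the 89 the share was 23.6%. In ros1-3, 11 of the 89 rose and 20 fell, where 38.2% of all tested loci were called, 19.7% higher and 18.5% lower. In ros1-4, 12 rose and 21 fell, with 38.2% called among all tested loci, 19.8% higher and 18.4% lower. In wild type, 11 rose and 19 fell, with 38.5% called among all, 20% higher and 18.5% lower. The members' shares of 34.8%, 37.1% and 33.7% called in either direction lay near these backgrounds. By direction, 12.4%, 13.5% and 12.4% of the 89 were higher in ros1-3, ros1-4 and wild type, each below the share of all tested loci. Those lower were 22.5%, 23.6% and 21.3%, each above it. These differences in share were not tested. The median log2 fold change of the 89 was -0.09 in ros1-3, -0.04 in ros1-4 and -0.04 in wild type, against -0.02, -0.01 and -0.01 over all tested loci. In all, 44 loci were called in at least 1 genotype, 45 in none, and none in opposite directions. Calls are edgeR quasi-likelihood tests at a Benjamini-Hochberg adjusted p under 0.05 over 15853 loci.

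The strongest increase was that of RAP2.6, an ethylene response factor known to be induced by ABA and stress. It had 143, 128 and 148 CPM in ros1-3 with ABA, against 14.9, 19.1 and 21.2 in ros1-3 mock. It had 128, 143 and 123 CPM in ros1-4 with ABA, against 12.1, 29.3 and 35.0 in ros1-4 mock, and 131, 85.9 and 124 CPM in wild type with ABA, against 16.8, 21.6 and 20 in wild type mock. Every ABA library lay above every mock library. The log2 fold change was 2.94 ± 0.23 in ros1-3, 2.37 ± 0.21 in ros1-4 and 2.54 ± 0.22 in wild type (SE; edgeR adjusted p = 9.54e-10, 9.63e-09 and 3.27e-09).

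AT4G06744, which encodes a leucine-rich repeat protein, rose beside it. Its level was 86.6 ± 3.19 CPM in ros1-3 with ABA, against 35.7 ± 1.99 in ros1-3 mock. In ros1-4 it was 70.1 ± 5.25 CPM with ABA, against 30.1 ± 8.48 mock, and in wild type 88.2 ± 11 CPM with ABA, against 41.6 ± 4.97 mock (SD, n = 3 each). Its neighbour RAP2.9, another ethylene response factor, fell: 5.34 ± 0.62 CPM in ros1-3 with ABA, against 13.7 ± 3.15 mock, 4.90 ± 0.80 in ros1-4 with ABA, against 10.6 ± 3.88 mock, and 5.54 ± 1.26 in wild type with ABA, against 10.9 ± 1.60 mock. The log2 fold changes in wild type were 1.1 ± 0.13 for AT4G06744 and -0.92 ± 0.24 for RAP2.9 (edgeR adjusted p = 6.5e-07 and 0.00343), so that these adjacent genes moved in opposite directions. The call of RAP2.9 in wild type was lost with the share of multiply aligned reads as a covariate.

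The other loci that rose in all 3 genotypes covered several functions. BZIP60, a transcription factor of the unfolded protein response, had log2 fold changes of 0.59, 0.61 and 0.72 in ros1-3, ros1-4 and wild type. IBR1, a peroxisomal enzyme that helps turn indole-3-butyric acid into auxin, had 0.78, 0.62 and 0.65. PAP26, a purple acid phosphatase, had 0.53, 0.41 and 0.43. AT1G36380, of unknown function, had 0.88, 0.64 and 1.09, and shares 232 bases with AT1G36390. AT2G12400, annotated as a plasma membrane fusion protein, had 0.81, 0.83 and 0.96. SE ran from 0.08 to 0.14 for these 5.

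The only pseudogene called in all 3 genotypes was AT2G11240. It had 267, 292 and 272 CPM in ros1-3 with ABA, against 229, 222 and 205 in ros1-3 mock, with a log2 fold change of 0.34 ± 0.09. The change was 0.28 ± 0.09 in ros1-4 and 0.24 ± 0.09 in wild type. The wild type call was lost without wild type ABA replicate 3 or without any 1 of the 3 wild type mock libraries. It was also lost in the fit of the groups compared, with estimates down to 0.14. In ros1-4 it was lost without mock replicate 1 and in the fit of the groups compared. The reference annotation places the protein coding loci AT2G11225 and AT2G11215 over 5044 and 93 of its bases, and it is unknown whether the counting used strand, so its reads cannot be assigned to the pseudogene alone.

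The steepest decrease was in AT3G32040, a terpenoid synthase gene at the edge of detection that was singled out after its values were seen. It had 0 reads in ros1-3 with ABA, against 12 in ros1-3 mock, and 0 in ros1-4 with ABA, against 23 in ros1-4 mock. In wild type 2 reads were counted with ABA, against 43 mock. At a floor of 3 reads over the group, it was at least 4.27-fold lower with ABA in ros1-3 and at least 11-fold lower in ros1-4. In wild type the ratio of mock to ABA was 25, with an exact 95% interval of 6.52 to 213 that covers counting error only. In the edgeR test it passed in each genotype (adjusted p = 0.00376 in ros1-3, 0.00011 in ros1-4 and 3.9e-05 in wild type). It met the filter on low counts through mock libraries alone, so it was testable only because the mock level was high. Comparisons of ABA with mock thus favour a decrease at this locus.

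Among the 13 loci that fell, AT1G41880, AT2G09990, AT1G42440, AT4G07950 and RPS1 are annotated with roles in ribosomes or RNA polymerase. Apart from RPS1 they belong to no list and were put together from the called loci. How many of the tested loci carry such annotations was not counted, and no test of a shared role was made. The ribosomal protein L35Ae gene AT1G41880 averaged 148 ± 8.14 CPM in ros1-3 with ABA, against 240.1 ± 26.7 mock, 132 ± 6.95 in ros1-4 with ABA, against 206 ± 13.6 mock, and 139.8 ± 7.38 in wild type with ABA, against 212 ± 18.1 mock. No ABA library overlapped a mock library of its genotype. The S5-domain ribosomal protein gene AT2G09990 had log2 fold changes of -0.65, -0.55 and -0.45 in ros1-3, ros1-4 and wild type. AT1G42440, a TSR1-like gene for the maturation of ribosomal RNA, had -0.58, -0.58 and -0.46. AT4G07950, annotated as an RNA polymerase subunit, had -0.73, -0.68 and -0.84. RPS1 fell less, by 0.37, 0.29 and 0.29 on the log2 scale. In wild type its call was lost without ABA replicate 3 or mock replicate 1 or 3, and in ros1-4 without ABA replicate 2 or mock replicate 1, without the filter or in the fit of the groups compared, with estimates down to 0.22 and 0.20 in size.

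Transcription factors and other genes completed the loci that fell. AT2G12646, of the PLATZ family of zinc-binding transcription factors, had 1.92 ± 0.46 CPM in ros1-3 with ABA, against 5.65 ± 1.57 mock, 2.71 ± 0.36 in ros1-4 with ABA, against 6.82 ± 0.27 mock, and 3.16 ± 0.38 in wild type with ABA, against 7.62 ± 3.18 mock. AT1G36060, an AP2-domain transcription factor gene, had log2 fold changes of -0.61, -0.63 and -0.69 in ros1-3, ros1-4 and wild type. In wild type the calls of both were lost with the share of multiply aligned reads as a covariate. AT4G07825, of unknown function, had -0.67, -0.70 and -0.57. AT2G12462, with a sterile alpha motif, had -0.83, -1.45 and -0.83; in wild type the call did not pass once mock replicate 1 was left out (-0.63), and neither did it in ros1-3 without ABA replicate 1 or 2 or mock replicate 2. CUE1, the phosphoenolpyruvate translocator of the plastid envelope, had -0.26, -0.35 and -0.22. Its call held under 5 of 12 alternatives in wild type. It was lost there without ABA replicate 1 or 3 or mock replicate 2 or 3. The fit without the filter, the fit of the groups compared and the replicate block also lost it. In ros1-3 it was lost without ABA replicate 1, mock replicate 3 or the filter.

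**Figure D3:**
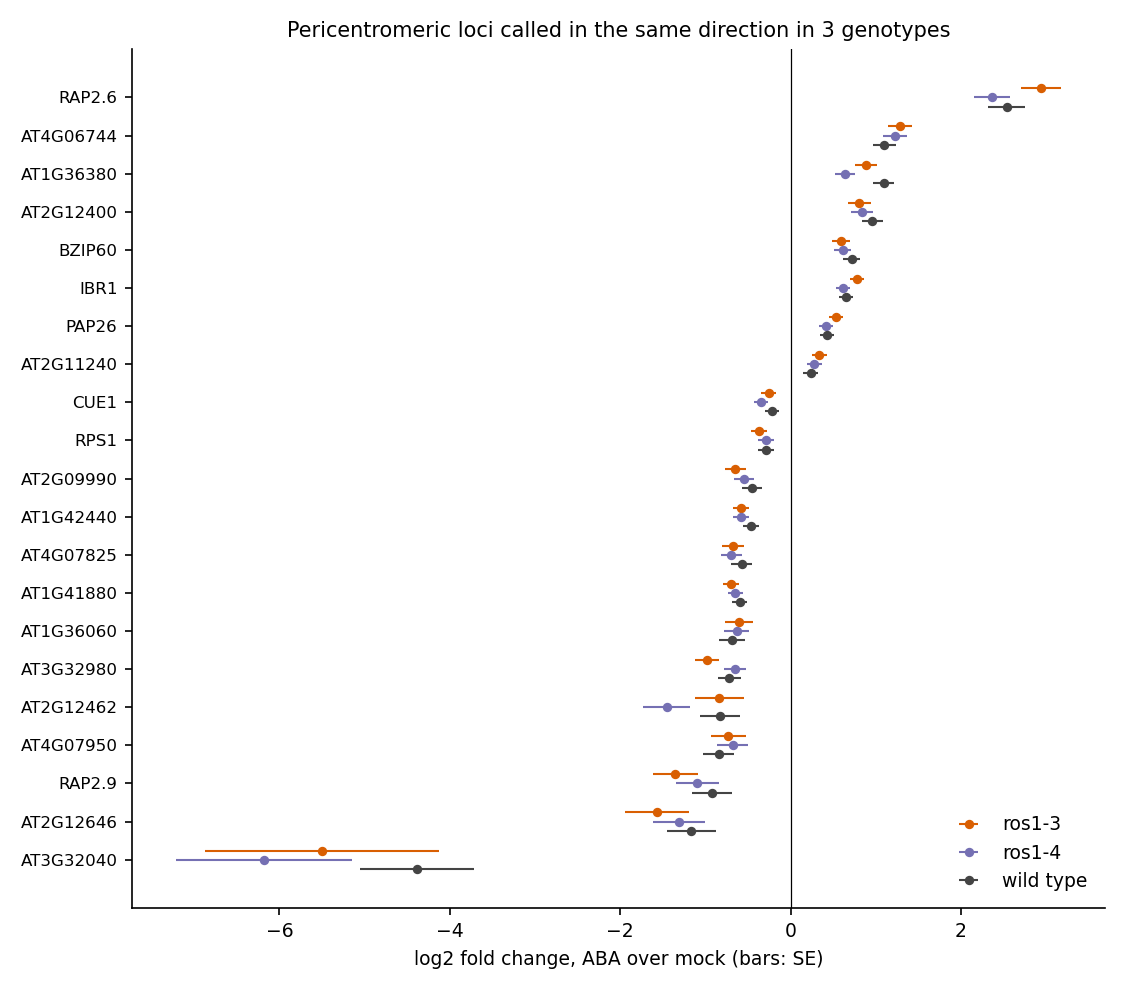
Log2 fold change, ABA over mock (horizontal, bars SE), of the 21 loci called in the same direction in ros1-3 (orange), ros1-4 (purple) and wild type (grey). RAP2.6 rose most, with 2.94, 2.37 and 2.54; the fitted values of AT3G32040 in ros1-3 and ros1-4 rest on ABA groups with no read and depend on the prior count.

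The peroxidase gene AT3G32980 also fell with ABA in every genotype, by 0.98 in ros1-3, 0.65 in ros1-4 and 0.72 in wild type on the log2 scale. Markers of the root, PHT1;1, CASP1 and AT4G08400, were lower with ABA as well. All 3 were detected in every group. Their summed level was 17.0 to 26.6 CPM in ros1-3 with ABA, against 51.7 to 89.1 in ros1-3 mock. It was 16.9 to 18.3 CPM in ros1-4 with ABA, against 63.3 to 91.4 in ros1-4 mock, and 20.1 to 23.5 CPM in wild type with ABA, against 77.5 to 121 in wild type mock. In whole seedlings, fewer cells of a type and less RNA per cell cannot be told apart, and the part of the root markers in the decreases was not tested.

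A further 23 loci were called in 1 or 2 genotypes. VFB3, an F-box protein gene, was lower in ros1-3 (-1.0) and ros1-4 (-0.97). XGD1, a glycosyltransferase of pectin synthesis, was higher in ros1-3 (0.53) and wild type (0.38), and AT2G11910 was lower in both (-0.61 and -0.48). LCV2 was higher in ros1-3 (0.25) and ros1-4 (0.32). The receptor-like kinase gene CRCK3 was higher in ros1-3 alone (0.41), and the glycerol-3-phosphate permease gene G3Pp5 in wild type alone (0.49). AT5G33300, annotated as kinesin-like, was lower in ros1-4 (-0.76) and wild type (-0.62). In ros1-4 alone, the noncoding RNA AT5G34871 (-0.94), AT2G10931 (-1.01) and AT1G36280 (-0.86) were lower, and the chromatin remodeller gene CHR5 (0.27) and AT4G06598 (0.39) higher. Of these named calls, those of LCV2, of XGD1 in ros1-3, of AT5G34871 and of AT2G10931 held under each of the 12 alternatives, which include leaving out each library of the comparison. AT5G33300 in wild type held under 5 of 12 and in ros1-4 under 10 of 12, AT2G11910 under 6 in wild type and 10 in ros1-3, VFB3 under 7 of 12 in ros1-3 and 4 of 11 in ros1-4, XGD1 in wild type under 7, G3Pp5 under 8, CRCK3 under 9, AT4G06598 under 7, CHR5 under 6 and AT1G36280 under 3. A call in 1 genotype does not show a difference between genotypes.

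That difference was tested directly. The interaction of ABA with genotype was called for 0 loci in ros1-3 and 0 in ros1-4, both among the 89 and among all 15853 loci (0%). At an unadjusted p under 0.05, edgeR gave 2 of the 89 for ros1-3 and 4 for ros1-4, against 743 and 521 of all tested loci (4.69% and 3.29%). DESeq2 called 0 of the 89 for either allele.

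Gene groups within these regions were described by their counts, 4 lists in all. Of the 10 genes of plastid, carbon and nitrogen metabolism, 8 were tested. With ABA, 0 rose and 3 fell in ros1-3, 1 rose and 3 fell in ros1-4, and 0 rose and 2 fell in wild type. Of all tested loci 19.7%, 19.8% and 20% rose and 18.5%, 18.4% and 18.5% fell in these genotypes. With 8 tested genes these counts do not set the list apart from all loci. GAPB fell to 649 ± 42.5 CPM in ros1-3 with ABA, against 888 ± 139.8 mock, and to 814 ± 99.9 CPM in ros1-4 with ABA, against 1049.7 ± 193 mock; in wild type it had 818 ± 63.7 CPM with ABA and 1016 ± 77.1 mock, which did not pass (adjusted p = 0.0582). NIA2 rose in ros1-4 alone (0.85 ± 0.25), with 760.1, 574 and 427 CPM with ABA, against 295, 235 and 447 mock; the lowest ABA library lay below the highest mock library, and the call was lost without ABA replicate 1 or mock replicate 2. The call of GAPB in ros1-3 was lost without mock replicate 2 (-0.33). Its call in ros1-4 was lost without ABA replicate 2 or mock replicate 1 or 2, and in the fit of the groups compared (as small as -0.22). Of the 7 genes of transcription and chromatin, 5 were tested: RAP2.6 and BZIP60 rose and RAP2.9 fell in every genotype, and ARP6, a subunit of the SWR1 complex, was lower in wild type alone (-0.26, edgeR adjusted p = 0.0431), a call that held under 3 of 12 alternatives and was lost without any 1 of wild type ABA replicates 1 and 2 and the mock replicates. DAYSLEEPER, a domesticated transposase, was called in none. The ribosome group had 1 tested gene of 3, RPS1, and the ribosomal RNA group 1 of 2, AT3G41768.

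The upstream motif was also counted over sets of loci. ACGTG on either strand was present in the 250 bases before 3 of the 8 loci that rose in all genotypes (RAP2.6, BZIP60 and AT1G36380) and before 3 of the 13 that fell (AT2G12646, RAP2.9 and AT2G09990). It was present for 23.6% of the 89 tested pericentromeric loci, against 24% of all tested loci and 21.7% of all loci with an annotated start. Among the pericentromeric pseudogenes the share was 11.1%. A TATAAA motif on the strand of the gene, searched in the same windows, was present for 31.5% of the 89 and 31.2% of all tested loci, and for 14.2% of the pericentromeric pseudogenes. A match is a string of letters, not a measured binding site.

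In the ros1 mutants few tested pericentromeric loci differed from wild type, and each call in the main fit was a decrease. In ros1-3 mock 0 were higher and 3 lower than in wild type mock, where 1.32% of all tested loci were called, 0.309% higher and 1.02% lower. In ros1-4 mock 0 were higher and 2 lower, with 0.448% called among all, 0.107% higher and 0.341% lower. With ABA in ros1-3, 0 were higher and 2 lower, with 1.72% called among all, 0.738% higher and 0.984% lower. With ABA in ros1-4, 0 were higher and 1 lower, with 0.681% called among all, 0.202% higher and 0.479% lower. The decreases concerned 5 loci, namely the peroxidase gene AT3G32980, AT4G07820, AGT, SADHU1-1 and the ribosomal RNA gene AT3G41768. At an unadjusted p under 0.05, edgeR gave 7 of the 89 in ros1-3 mock, 12 in ros1-4 mock, 10 in ros1-3 with ABA and 14 in ros1-4 with ABA, in either direction. These are 7.87%, 13.5%, 11.2% and 15.7% of the 89, against 12.2%, 6.91%, 12.3% and 8.16% of all tested loci. The share was below that of all loci in ros1-3 mock and close to it in ros1-3 with ABA. In ros1-4 it was above that of all loci under each treatment. No test of these shares was made. DESeq2 called the same loci and 0 higher in each comparison. Some other alternatives gave increases. The fit without the filter called 1 higher in ros1-3 mock, 1 in ros1-4 mock and 2 in ros1-4 with ABA. The fit of only the groups compared called 1 higher in ros1-3 with ABA. With the share of multiply aligned reads as a covariate, the only call in ros1-4 with ABA was higher. Both alleles are set against the same wild type libraries of a treatment. The median log2 difference of the 89 loci lay between -0.05 and 0.01 in these 4 comparisons.

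AT3G32980, at chr3:13526071-13530098 on the minus strand, is annotated as a peroxidase; plant enzymes of this kind use hydrogen peroxide to oxidise phenolic compounds. With ABA it had 123, 148 and 86.8 CPM in ros1-3 and 227, 229 and 207 CPM in ros1-4, against 282, 229.6 and 235 CPM in wild type. In mock seedlings it had 211, 265 and 231 CPM in ros1-3 and 389, 319.9 and 333 CPM in ros1-4, against 425, 402 and 403 CPM in wild type. The ros1-3 libraries lay far below every wild type library of their treatment. The ros1-4 libraries lay below wild type by a narrow margin with ABA, where the highest ros1-4 library had 228.7 CPM against 229.6 in the lowest of wild type. The log2 difference of ros1-3 from wild type was -1.06 ± 0.14 with ABA and -0.80 ± 0.13 in mock (SE; edgeR adjusted p = 5.28e-05 and 0.00132). For ros1-4 it was -0.17 with ABA and -0.24 in mock, neither of which passed (adjusted p = 0.832 and 0.774). The mutants also differed from each other, ros1-3 from ros1-4, by -0.89 ± 0.14 with ABA and -0.56 ± 0.13 in mock (edgeR adjusted p = 0.000434 and 0.0337). The ABA call in ros1-3 held under all 12 alternatives, and the mock call was lost with the share of multiply aligned reads as a covariate.

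AT4G07820 encodes a protein of the CAP family, to which the pathogenesis-related protein PR1 belongs. It had 0.21, 0.50 and 0.56 CPM in ros1-3 mock and 1.19, 0.48 and 0 CPM in ros1-4 mock, against 3.25, 3.90 and 4.87 CPM in wild type mock. No mutant mock library reached the lowest wild type mock library. The counts behind these values were 5 reads in ros1-3 mock and 8 in ros1-4 mock, against 81 in wild type mock. The log2 difference from wild type was -3.29 ± 0.58 in ros1-3 and -2.86 ± 0.52 in ros1-4 (edgeR adjusted p = 0.00335 and 0.00803). AT4G07820 passed the filter on low counts only through the wild type mock libraries, so it was testable only because that group was high. Comparisons with wild type mock, also that of ABA in wild type, thus favour a decrease. Both mock calls held in the fit without that filter. Leaving out ros1-3 mock replicate 1 ended the ros1-3 call (-2.92). The ros1-4 call was lost with the covariate, in the fit of the 2 groups alone, and when wild type mock replicate 3 or ros1-4 mock replicate 2 or 3 was left out, with estimates as small as -2.22.

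The same gene was lower with ABA. Reads with ABA were 1 in ros1-3, 0 in ros1-4 and 8 in wild type, so that the mutants could not be told from wild type at this depth (adjusted p = 0.563 and 0.324). In wild type the log2 fold change with ABA was -3.45 ± 0.50 (edgeR adjusted p = 1.39e-05). In ros1-4 it was at least 3.82-fold lower with ABA at a floor of 3 reads over the group (adjusted p = 0.0109), a call lost without ros1-4 mock replicate 1. The ABA change in ros1-3 did not pass (adjusted p = 0.223). The summed root markers were 51.7 to 89.1 CPM in ros1-3 mock and 63.3 to 91.4 CPM in ros1-4 mock, against 77.5 to 121 CPM in wild type mock; their part in the differences of AT4G07820 and AT3G32980 was not tested.

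AGT, the peroxisomal alanine:glyoxylate aminotransferase of photorespiration, had 71.8, 120.1 and 88.6 CPM in ros1-3 mock, against 131, 135 and 144 CPM in wild type mock. The groups did not overlap, and the ros1-3 libraries were spread widely. The log2 difference was -0.55 ± 0.13 (edgeR adjusted p = 0.031). This call was lost under 7 of the 12 alternatives: with the covariate, in the fit of the 2 groups alone, without any 1 of the wild type mock libraries and without ros1-3 mock replicate 1 (-0.38) or 3. In ros1-4 mock AGT averaged 114 ± 5.94 CPM, a log2 difference of -0.26 that did not pass (adjusted p = 0.728).

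The retroposon SADHU1-1 was lower in ros1-3 with ABA. It had 100.4, 110.3 and 104 CPM in ros1-3 with ABA and 130.3, 134 and 136 CPM in ros1-4 with ABA, against 129, 123 and 145 CPM in wild type with ABA. All 3 ros1-3 libraries lay below the others. The log2 difference from wild type was -0.33 ± 0.08 in ros1-3 (edgeR adjusted p = 0.0299) and 0.01 ± 0.08 in ros1-4 (adjusted p = 0.994), and ros1-3 differed from ros1-4 by -0.35 ± 0.08 (adjusted p = 0.0187). The call against wild type was lost under 5 of the 12 alternatives, namely the covariate and leaving out wild type ABA replicate 3 (-0.27) or any 1 of the ros1-3 ABA libraries. In mock seedlings SADHU1-1 had 127 ± 10.2 CPM in ros1-3 and 136 ± 5.27 in ros1-4, against 136 ± 3.86 in wild type, and passed in neither allele. It shares 122 bases with the annotated AT2G10405.

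Between the mutants, 4 of the 89 tested loci were called in mock, 2 higher and 2 lower in ros1-3, where 1.27% of all tested loci were called, 0.53% higher and 0.738% lower. With ABA 0 were higher and 2 lower in ros1-3, where 2.79% of all were called, 1.27% higher and 1.52% lower. In mock AT3G41768 and the pseudogene AT4G06477 were higher in ros1-3 than in ros1-4, and AT3G32980 and the noncoding RNA AT5G34871 were lower. AT5G34871 had 2.31, 7.05 and 5.58 CPM in ros1-3 mock, against 11, 11.4 and 12 CPM in ros1-4 mock, which did not overlap (-1.24 ± 0.28, edgeR adjusted p = 0.0217). AT4G06477 had 26 reads in ros1-3 mock, against 1 in ros1-4 mock, a ratio of 30.6 with an exact 95% interval of 5.03 to 1250 for counting error (edgeR adjusted p = 0.0334). Wild type mock had 31 reads of AT4G06477, and ros1-4 did not pass against it (adjusted p = 0.142). With ABA, AT3G32980 and SADHU1-1 were the loci called, both lower in ros1-3 than in ros1-4.

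**Figure D4:**
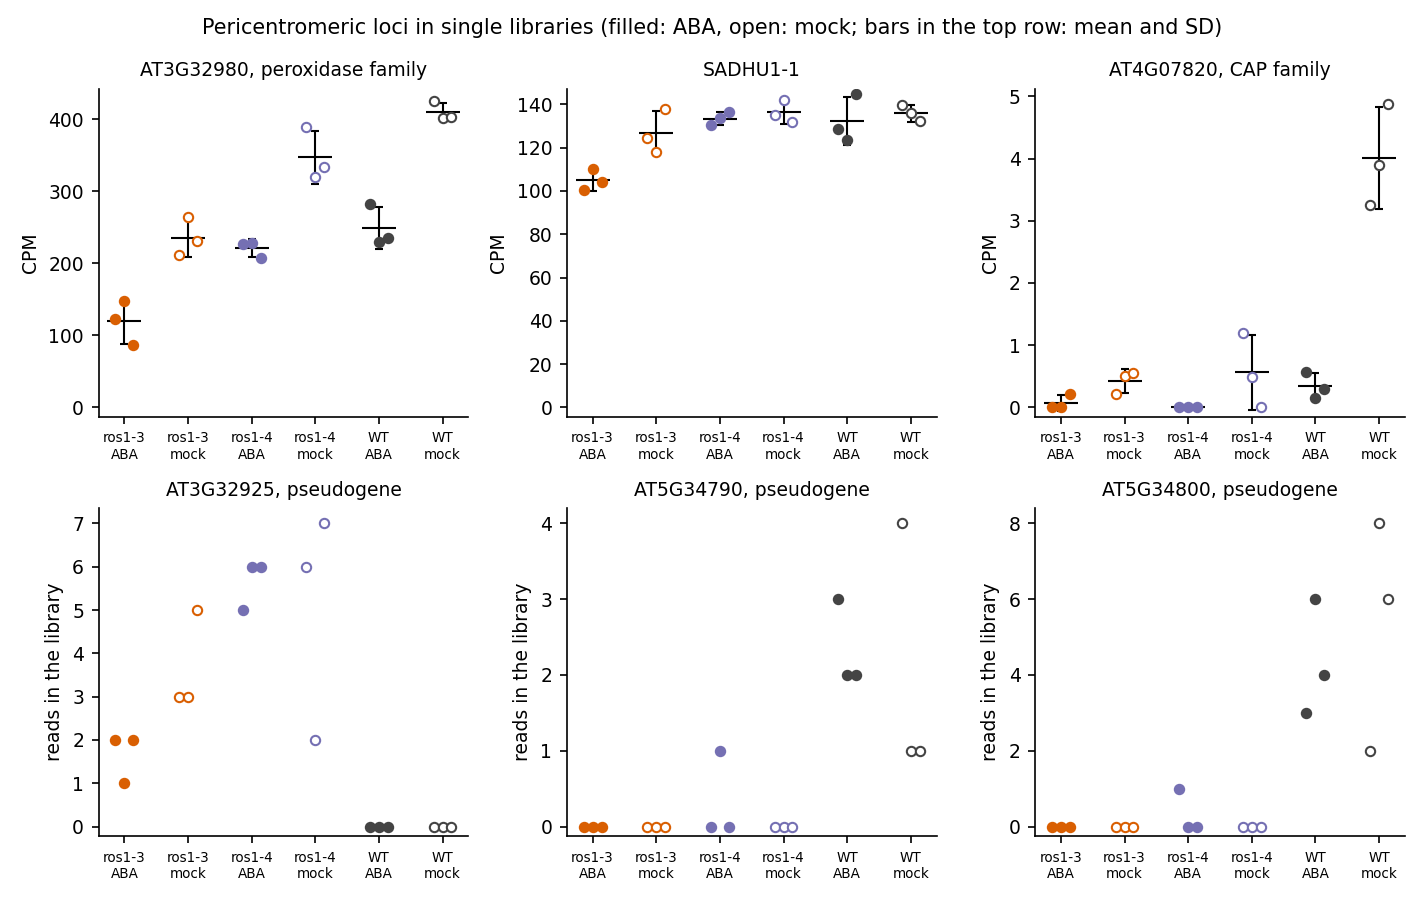
CPM (top row, bars mean and SD) or reads (bottom row) in each library of 6 pericentromeric loci, by genotype and treatment (filled points ABA, open points mock; 3 libraries per group). AT3G32980 is lowest in ros1-3 with ABA, AT4G07820 stands above 3 CPM only in wild type mock, AT3G32925 has reads only in the ros1 libraries, and AT5G34790 and AT5G34800 have at most 1 read in any ros1 library.

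The 18S ribosomal RNA gene AT3G41768 held 532088 of the 1152760 reads of these regions. It averaged 4782 ± 852 CPM in ros1-3 with ABA and 2704 ± 88.0 in ros1-4 with ABA, against 6721 ± 2954 in wild type with ABA. In mock seedlings it averaged 5161 ± 1443 CPM in ros1-3 and 1999 ± 429 in ros1-4, against 9685 ± 1433 in wild type (SD, n = 3 each). The ros1-4 libraries lay below every library of the other genotypes. The log2 difference of ros1-4 from wild type was -1.31 ± 0.23 with ABA and -2.28 ± 0.24 in mock (edgeR adjusted p = 0.004 and 5.19e-06). For ros1-3 it was -0.49 with ABA and -0.91 in mock, which did not pass (adjusted p = 0.381 and 0.0517). ros1-3 was higher than ros1-4 in mock by 1.37 ± 0.23 (adjusted p = 0.00215).

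The share of reads that aligned to several places moved with this gene. It was 5.60% to 7.48% in ros1-3 with ABA and 3.86% to 4.46% in ros1-4 with ABA, against 6.32% to 11.4% in wild type with ABA. In mock it was 6.53% to 9.45% in ros1-3 and 3.46% to 4.62% in ros1-4, against 9.80% to 13.0% in wild type. Wild type ABA replicate 3, with 10129 CPM of AT3G41768 against 4886 and 5147 in the other 2 libraries of its group, also had the highest multiply aligned share of the group. With that share as a covariate the ros1-4 differences were -0.43 with ABA and -0.70 in mock (edgeR adjusted p = 0.486 and 0.515), so both calls were lost. The ros1-4 and wild type libraries did not overlap in that share, so this fit cannot cleanly tell genotype and share apart. Both calls held when any 1 library was left out. The libraries were made from messenger RNA, and the amount of ribosomal RNA left in each was not measured apart from these reads.

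**Figure D5:**
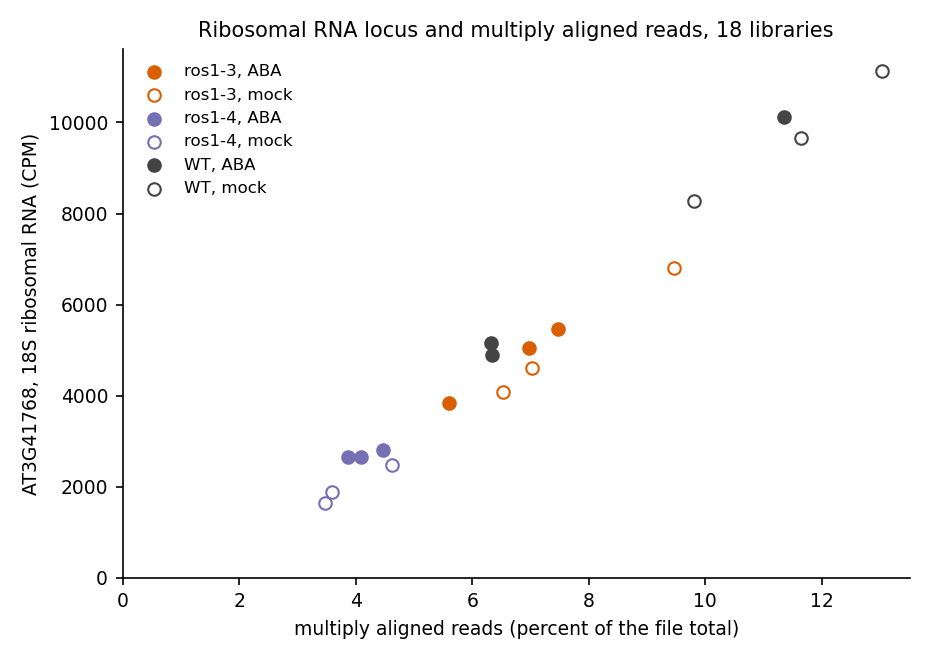
CPM of the 18S ribosomal RNA gene AT3G41768 (vertical) against the percentage of multiply aligned reads (horizontal) in each of the 18 libraries, coloured by genotype (filled ABA, open mock). The 6 ros1-4 libraries sit at the low end of both axes, at no more than 4.62% and 2805 CPM, and the wild type mock libraries at the high end.

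Summed over all pericentromeric loci, the level was lower in the mutants mainly through this gene. The sum was 10419 ± 951 CPM in ros1-3 with ABA and 8873 ± 250.4 in ros1-4 with ABA, against 12716 ± 2763 in wild type with ABA. It was 11249 ± 1672 CPM in ros1-3 mock and 8226 ± 487 in ros1-4 mock, against 15978 ± 1294 in wild type mock. Without the ribosomal RNA genes the sum was 5637 ± 104 CPM in ros1-3 with ABA and 6169 ± 270.3 in ros1-4 with ABA, against 5996 ± 268 in wild type with ABA. In mock it was 6088 ± 301 CPM in ros1-3 and 6227 ± 296 in ros1-4, against 6294 ± 242 in wild type. Averaged over the treatments, the log2 difference from wild type was -0.39 in ros1-3 and -0.73 in ros1-4 with the ribosomal RNA genes, and -0.07 and 0.01 without them. Without them only ros1-3 with ABA stood apart from wild type of its treatment, its libraries reaching at most 5745 CPM against at least 5778 CPM.

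The summed level of the pseudogenes of these regions varied little between groups. They summed to 480 ± 20 CPM in ros1-3 with ABA, against 452 ± 15.7 in ros1-3 mock, to 515 ± 10.3 in ros1-4 with ABA, against 476 ± 32.0 mock, and to 502 ± 49.7 in wild type with ABA, against 469.8 ± 12.9 mock. ABA and mock libraries overlapped in each genotype. The log2 difference, ABA over mock, averaged 0.10 over the genotypes, and -0.01 without the 3 most read pseudogenes. Averaged over the treatments, the sum differed from wild type by -0.06 in ros1-3 and 0.03 in ros1-4 on the log2 scale, and the libraries of each allele overlapped those of wild type under each treatment.

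At an equal depth of 3304038 reads per library, slightly fewer pericentromeric loci were detected with ABA. The share with at least 1 read was 5.69% ± 0.10 in ros1-3 with ABA, against 5.98% ± 0.08 mock, 5.38% ± 0.13 in ros1-4 with ABA, against 5.83% ± 0.07 mock, and 5.58% ± 0.13 in wild type with ABA, against 5.84% ± 0.24 mock. ABA and mock libraries overlapped in wild type and did not in either mutant. All other loci moved the same way, with 63.8% ± 0.35 in ros1-3 with ABA, against 64.5% ± 0.11 mock, 63.1% ± 0.47 in ros1-4 with ABA, against 64.3% ± 0.39 mock, and 63.6% ± 0.15 in wild type with ABA, against 64.3% ± 0.56 mock. Averaged over the treatments, the share of pericentromeric loci differed from wild type by 0.13 percentage points in ros1-3 and -0.10 in ros1-4, with overlapping libraries under each treatment.

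Below the filter, 3 pseudogenes with uneven reads between the mutants and wild type were singled out after their values were seen; 1 of them, AT3G32925, passed a test. AT3G32925, at chr3:13486981-13488632 on the minus strand, had 2, 1 and 2 reads in ros1-3 with ABA, 5, 6 and 6 in ros1-4 with ABA, 3, 3 and 5 in ros1-3 mock and 6, 2 and 7 in ros1-4 mock. All 6 wild type libraries had 0 reads of it among 42425977 counted reads. Over both treatments this came to 0.63 CPM in ros1-3 and 0.91 CPM in ros1-4, against a floor of 0.073 CPM in wild type (3 reads over the group). It was thus at least 8.57-fold higher in ros1-3 and at least 12.4-fold higher in ros1-4. In an edgeR fit without the filter on low counts it passed in ros1-3 mock, ros1-4 mock and ros1-4 with ABA (adjusted p = 0.0161, 0.0121 and 0.00864) and not in ros1-3 with ABA (adjusted p = 0.157). These tests use the same reads by which the locus was chosen and give no support apart from them.

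No other locus of the whole table had 0 reads in wild type and at least 10 in each allele. AT3G32925 lies wholly inside the annotated protein coding locus AT3G32920, which had 1 read in all, and 37438 bases from AT3G32980. Whether the counting used strand is unknown, so the reads of AT3G32925 cannot be assigned to the pseudogene alone. Its upstream sequence is among those printed above.

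The pseudogenes AT5G34790 and AT5G34800, at chr5:12966080-12968155 and chr5:12971144-12973180 on the plus strand with 2988 bases between them, showed the opposite pattern. AT5G34790 had 0 reads in the 6 ros1-3 libraries and 1 in the 6 ros1-4 libraries, against 13 in the 6 wild type libraries. AT5G34800 had 0 in ros1-3 and 1 in ros1-4, against 29 in wild type. Every wild type library had at least 1 read of each. In ros1-3 they were at least 2.70-fold and at least 6.02-fold lower, and the ratio of wild type to ros1-4 was 11.2 (exact 95% interval 1.68 to 476) and 25 (4.14 to 1020), for counting error only. Among all other loci, 7 had at least 10 reads in wild type and at most 1 in each allele. Neither pseudogene was called in the fit without the filter; for AT5G34800 in mock the edgeR adjusted p was 0.0736 in ros1-3 and 0.115 in ros1-4.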

How the data were processed

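The pericentromeric ranges, gene lists and comparisons were chosen with earlier results of these data known. Per the submitters' processing notes, reads were trimmed with Trim Galore 0.2.8, aligned to TAIR10 with TopHat2 2.0.8 and SAMtools, and counted with HTSeq 0.6.1. The authors deposited raw counts per transcript model, 40466 models in each file, with no strand setting stated. Models were summed to 32399 loci, of which 31912 matched the RefSeq TAIR10.1 annotation. Rows that name no gene (36.7% to 44.5% of a file) were left out; ambiguous reads made up 32.1% to 33.2% of counted and ambiguous reads together.

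CPM used library sizes scaled by TMM. All 18 libraries entered 1 edgeR 4.0.16 quasi-likelihood fit (R 4.3.3) with 1 coefficient per group and 12 residual degrees of freedom, over 15853 loci that passed filterByExpr (minimum count 10), with Benjamini-Hochberg adjustment over all of them and calls under 0.05. Each SE was derived from the log2 fold change and its F statistic, as their size over the root of F. For ABA, up to 12 called loci per genotype and direction were named by the size of their log2 fold change. Loci whose log2 CPM averaged under 1 were passed over there, as were those whose ABA and mock libraries overlapped. Every locus called between genotypes was named. Also named were the loci called in all genotypes, the 12 highest per kb and the list members. Loci outside these rules are said to be chosen after their values were seen. Sums and detected shares per library, the last after thinning to 3304038 reads, are given without a test. Intervals are exact at 95% and, like the floor of 3 reads, cover counting error only. The edgeR fit was tried on simulated counts with known changes in wild type with ABA, which checks the code and not the calls made here. Alternatives were a replicate block, RLE scaling, no filter, DESeq2 1.42.0, a fit of only the groups compared, a covariate for the multiply aligned share and leaving out each library. For the comparison of ros1-3 with ros1-4, how far the calls held under these alternatives is not given. There the fit without the filter also called the pseudogene AT2G11150, higher in ros1-3 mock than in ros1-4 mock. Its log2 difference was 5.46 (edgeR adjusted p = 0.0452), and it had 43 reads in all. Promoters were read from the RefSeq genome with Python 3.11.15.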

Additional observations from a re-analysis of the deposited data

Results flagged for a closer look

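AT3G32925, a pseudogene below the count filter and so outside the main measurement, had 48 reads over the 12 ros1 libraries (16 in ros1-3 and 32 in ros1-4) and none in the 6 wild type libraries. A signal in a locus that the main fit did not test, above the level in the control libraries, is what set it apart.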

How the results depend on the processing

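Counts of ABA calls among the 89 loci stayed within 1.5 times under each alternative, and leaving out single libraries gave 24 to 31 in ros1-3, 27 to 31 in ros1-4 and 23 to 26 in wild type. No named call reversed; 21 of 27 named ABA calls in ros1-3, 22 of 32 in ros1-4 and 15 of 27 in wild type held under every alternative, as did 14 of the 21 loci shared by the genotypes. The few ros1 calls moved more. With a covariate for the multiply aligned share, 1 locus was called in ros1-3 mock and 0 in ros1-4 mock. With ABA that fit called 1 in ros1-3 and 1 in ros1-4, the latter higher and not called in the main fit. Without the filter on low counts 5 were called in ros1-3 mock, 4 in ros1-4 mock and 4 in ros1-4 with ABA. Of these, 1, 1 and 2 were higher. The fit of only the groups compared called 1 in ros1-4 mock, and 3 in ros1-3 with ABA, of which 1 was higher. Leaving out 1 library gave 1 to 4 in ros1-3 mock, 1 to 2 in ros1-4 mock, 1 to 2 in ros1-3 with ABA and 1 to 2 in ros1-4 with ABA. The causes were not tested.

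The summed level without ribosomal RNA loci differed by -0.0645 with ABA, -0.0683 in ros1-3 and 0.0127 in ros1-4, where the sign reversed; with all loci it was -0.11, -0.39 and -0.73. Leaving out single libraries gave -0.17 to -0.07 for ABA, -0.45 to -0.31 for ros1-3 and -0.77 to -0.64 for ros1-4. The share detected in ros1-3 reversed to -0.0739 percentage points when at least 5 reads were asked for. Leaving out single libraries gave 0.057 to 0.172 percentage points in ros1-3, -0.174 (without wild type mock replicate 3) to -0.059 in ros1-4 and -0.377 to -0.301 with ABA.

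Deviations of same-numbered libraries from their group means had correlations of -0.17 to 0.236. The highest was that of replicate 1 in ros1-4 mock and ros1-4 with ABA. These correlations cannot settle whether same-numbered libraries were grown or handled together, and the main fit did not pair them. With the replicate number as a block, 32, 30 and 28 loci were called for ABA in ros1-3, ros1-4 and wild type; 3 and 2 in ros1-3 and ros1-4 mock; 2 and 1 with ABA; and 0 for each interaction. Depth limits the 173 loci that were read but not tested.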
